A study of Homo sapiens with 6 samples.

Results

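The MYC-MAX-MXD network is a set of basic helix-loop-helix leucine zipper transcription factors that share MAX or its relative MLX as a dimer partner. MYC and MYCN bind DNA with MAX at E-boxes and activate genes of growth, while MXD1, MXI1, MXD3, MXD4 and MNT compete for the same partner and repress such genes through SIN3 corepressors. MLXIP, also called MondoA, dimerises with MLX and responds to glucose phosphates. In neuroblastoma, a tumour of the sympathetic lineage, amplification of MYCN marks high-risk disease.

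The network was taken here as 10 genes (MYCN, MYC, MAX, MXD1, MXD3, MXD4, MXI1, MNT, MLX and MLXIP), through every probe set whose only gene symbol in the platform annotation was one of them. That gave 33 of the 54675 probe sets in the table, for 9 of the 10 genes, out of 19775 genes with such a probe set. No array values of MXD4 are used here, because its 3 probe sets are annotated to a second gene as well. The cells were IMR32, an established human neuroblastoma line known to carry amplified MYCN. One group of 3 arrays came from cells kept 24 h in 0.1% DMSO, the solvent control. The other group of 3 came from cells kept 24 h in 118 µM teriflunomide, an inhibitor of dihydroorotate dehydrogenase, the mitochondrial enzyme of pyrimidine synthesis. The labels do not say whether the drug wells also held DMSO, and they call the arrays of a group biological replicates without saying whether separate cultures were used. The p-values therefore measure the spread among these arrays, which may be technical.

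Values are log2 intensities, on which a step of 1 is a doubling. The lowest value, shared by all 6 arrays, was 2.18, and between 33.9% and 34.3% of probe sets on an array sat there. A probe set was tested when it reached its array's median (2.63 to 2.66) on at least 3 arrays, and called when the limma adjusted p, over the 27290 probe sets tested, was under 0.05. Differences are teriflunomide minus DMSO. Over the neuroblastoma markers PHOX2A, HAND2, GATA3, ISL1, CHGA and CHGB, the lowest value on any array was log2 6.92. CHGA fell by 1.46, and PHOX2A, GATA3 and ISL1 rose by 0.76, 0.35 and 0.22, and the part of these changes in the results below was not tested. By contrast, TH (tyrosine hydroxylase) stayed at or under 2.21 and DBH (dopamine beta-hydroxylase) at or under 4.26. The 10 measured markers of blood, endothelial and epithelial cells lay between 2.18 and 2.94. Of 4 fibroblast markers, COL1A2 and DCN were at or near the lowest value. The other 2 were bright: COL1A1 lay between 10.76 and 11.81 and rose by 0.94, and PDGFRA lay between 9.77 and 10.20 and fell by 0.26. Whether this has a part in the results below was not tested. RNA quality was read from the ACTB and GAPDH control probe sets, as their 3' minus their 5' log2 signal. For ACTB it was 1.36 ± 0.03 in the DMSO group and 1.62 ± 0.07 in the teriflunomide group (SD, n = 3 each, two-sided exact permutation p = 0.1, the smallest p that 3 against 3 allows). For GAPDH it was 0.049 ± 0.006 and 0.063 ± 0.021 (SD, n = 3 each, exact permutation p = 0.4). The part of the ACTB shift in the results was not tested either.

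The network did not move as one. With teriflunomide MXD1 rose most, 3.13-fold on its brighter probe set and 8.15-fold on its dimmer one, and MXI1 rose 1.46-fold. MYCN fell 1.34-fold, MAX between 1.27-fold and 1.61-fold on 3 probe sets, MNT 1.24-fold and MLXIP 1.29-fold on 1 of its 2 tested probe sets. MYC lay at the lowest value on all arrays in both groups. Of the 33 probe sets 19 passed the filter, for 8 genes, and of these 3 were higher, 7 lower and 9 not past the threshold. Over all tested probe sets 23.7% were called higher, 25.2% lower and 48.8% in either direction, so the number of network probe sets called is close to that background. For 11 of the 19 every teriflunomide array lay on one side of every DMSO array, against 60.0% of all tested probe sets. The median difference of the 19 was -0.11, beside -0.00055 over all tested probe sets. No network gene had tested probe sets called in opposite directions. In a bulk RNA measurement, fewer cells with a transcript and less of it per cell cannot be told apart, and a change common to all transcripts cannot be read from values normalized across arrays.

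**Figure D1:**
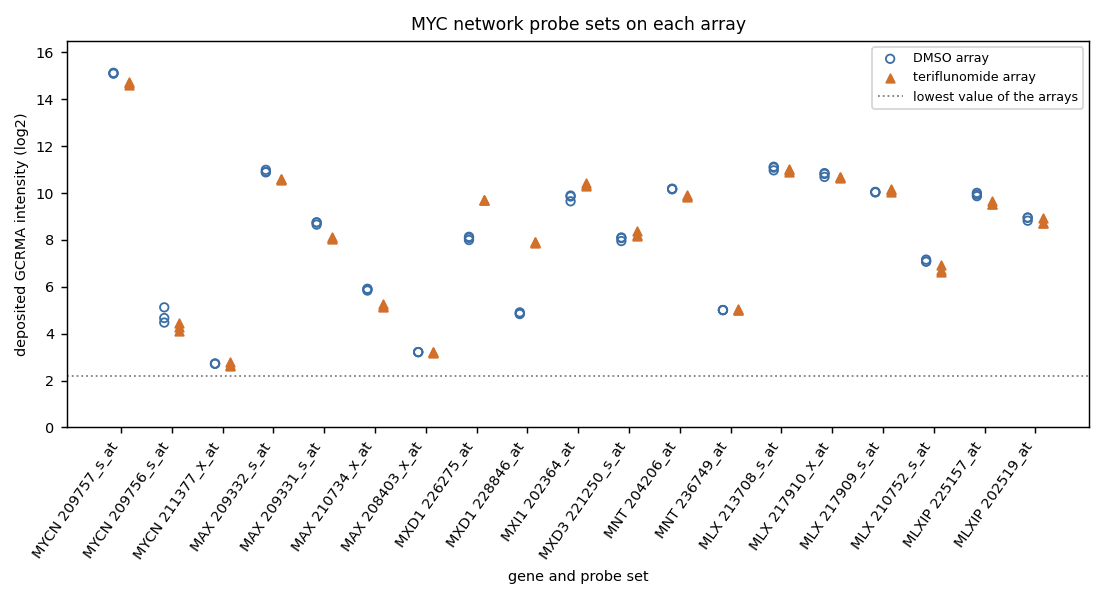
Log2 intensity (vertical axis) of each of the 19 tested network probe sets (horizontal axis) on each array: open circles are the 3 DMSO arrays, triangles the 3 teriflunomide arrays, and the dotted line is the lowest value of the arrays, 2.18. The MXD1 groups stand far apart, MYCN 209757_s_at lies near log2 15 in both groups, and MYCN 211377_x_at and MAX 208403_x_at lie closest to the dotted line.

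The upstream sequence of 4 network genes is shown because these genes carry the largest rise (MXD1), the oncogene itself (MYCN) and the 2 analysed members that hold an E-box (MNT and MLX). Each line gives the 250 bases before the annotated start in the gene's own direction, from RefSeq on GRCh38.p14. Capitals mark one motif per gene, searched on both strands: the GC box GGGCGG in MXD1, the E2F-type motif TTTGGCGC in MYCN and the E-box CACGTG, which reads the same on either strand, in MNT and MLX. The windows are chr2:69914859-69915108 (plus strand) for MXD1, chr2:15940300-15940549 (plus) for MYCN, chr17:2401061-2401310 (minus) for MNT and chr17:42566850-42567099 (plus) for MLX.
MXD1: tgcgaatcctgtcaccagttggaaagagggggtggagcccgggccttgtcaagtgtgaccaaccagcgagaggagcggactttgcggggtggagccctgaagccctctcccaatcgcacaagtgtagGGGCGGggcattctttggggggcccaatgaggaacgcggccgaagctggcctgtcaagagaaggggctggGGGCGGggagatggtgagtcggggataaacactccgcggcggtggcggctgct
MYCN: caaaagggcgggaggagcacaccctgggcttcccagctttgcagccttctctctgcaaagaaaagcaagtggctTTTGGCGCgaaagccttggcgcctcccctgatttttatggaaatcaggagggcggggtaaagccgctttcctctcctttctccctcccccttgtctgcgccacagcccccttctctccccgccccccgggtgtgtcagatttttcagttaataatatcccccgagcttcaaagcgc
MNT: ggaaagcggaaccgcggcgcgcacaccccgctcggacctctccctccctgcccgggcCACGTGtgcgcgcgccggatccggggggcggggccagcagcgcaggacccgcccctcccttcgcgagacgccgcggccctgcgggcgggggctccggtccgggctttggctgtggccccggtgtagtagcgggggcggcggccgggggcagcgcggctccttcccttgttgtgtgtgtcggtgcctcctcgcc
MLX: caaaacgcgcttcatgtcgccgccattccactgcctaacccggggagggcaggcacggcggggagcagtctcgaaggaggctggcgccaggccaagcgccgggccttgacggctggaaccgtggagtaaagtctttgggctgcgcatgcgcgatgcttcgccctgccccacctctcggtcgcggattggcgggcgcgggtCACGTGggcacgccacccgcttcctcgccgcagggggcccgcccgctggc

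The E-box began 193 bases before the start of MNT and 50 bases before that of MLX. There were 12 upstream windows of 9 network genes (MAX and MXI1 have more than 1 start, and MYC was not matched). Of these 12, 3 held CACGTG, in MNT, MLX and MXD4, compared with 6.34% of all 35116 windows. The MYCN window held the only TTTGGCGC among the 12, 176 bases before the start, and 0.550% of all windows held that motif. This motif was not in the plan, which named only E-boxes, and was searched in 1 exact form. Its share over all windows is therefore a description and no measure of how unusual the MYCN match is. MXD1 had 2 GC boxes, 123 and 53 bases before the start, and no CACGTG. GC boxes, also not in the plan, were found in 11 of the 12 network windows and in 42.6% of all windows. Gene lists described below were above that share too: 65.9% of the windows of MYC-activated targets and 70.6% of those of MYC-repressed targets. For the stability genes it was 66.7%, and for the cofactors and corepressors 63.2%. Windows of MGA, MYCL and MLXIPL stood at 60.0%, of genes near MYCN at 42.9% and of TXNIP and ARRDC4 at 33.3%. These are matches of letters, and nothing here measured a factor at them.

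MYCN, the MYC family member amplified in this line, had 10 probe sets, of which 3 were tested. The brightest, 209757_s_at, read 15.11, 15.13 and 15.10 on the DMSO arrays and 14.75, 14.60 and 14.71 on the teriflunomide arrays. All 3 teriflunomide arrays lay below all DMSO arrays, and the gap between them was wider than the range of either group. The difference was -0.43 (SE 0.05, limma adjusted p = 0.00137), with a 95% interval from -0.55 to -0.30. The highest value on any array was between 16.22 and 16.31, so this probe set was near the upper end of the scale. The dimmer 209756_s_at read 4.67, 4.47 and 5.12 with DMSO and 4.47, 4.28 and 4.12 with teriflunomide. Its groups touched, and its difference of -0.46 (SE 0.19) did not pass (limma adjusted p = 0.101). The third, 211377_x_at, lay between 2.64 and 2.79 on every array, and of the 7 MYCN probe sets below the filter 6 were at the lowest value on all 6 arrays. The level of MYCN thus rests on 1 bright probe set.

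MYC, the family member expressed in most dividing tissues, had 1 probe set, which read 2.18 on all 6 arrays. MYCL, the third family member and not among the 10 genes, read 2.72, 2.92 and 2.82 with DMSO and 4.13, 4.86 and 3.65 with teriflunomide. Its rise of 1.40 (SE 0.31, limma adjusted p = 0.0111 over genes) lay wholly under log2 5 and was 0 when values under 5 were raised to 5.

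MAX, the obligate partner of MYC proteins and of the MXD repressors, fell on 3 of its 4 tested probe sets. The brightest, 209332_s_at, read 10.89, 10.91 and 10.99 with DMSO and 10.59, 10.60 and 10.58 with teriflunomide, a difference of -0.34 (SE 0.04, limma adjusted p = 0.00144). Probe set 209331_s_at read 8.75, 8.74 and 8.65 against 8.14, 8.05 and 8.10, a difference of -0.62 (SE 0.04, limma adjusted p = 0.000299). On both, the gap between the groups was wider than the range of either. A dim one, 210734_x_at, went from a mean of 5.89 to 5.20, a difference of -0.69 (SE 0.04), and the remaining tested one, near log2 3.2 on all arrays, showed -0.02. The 95% intervals of the brightest probe set (-0.44 to -0.24) and of 209331_s_at (-0.73 to -0.51) do not overlap, though the difference between the probe sets was not itself tested, and all 3 called probe sets had the same direction.

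MXD1, also called MAD1, is a MAX partner that replaces MYC at E-boxes and is known to rise as cells leave the cycle and differentiate. On 226275_at the DMSO arrays read 8.135, 7.997 and 8.086 and the teriflunomide arrays 9.711, 9.718 and 9.723. The difference was 1.64 (SE 0.04, limma adjusted p = 4.08e-05). On 228846_at the values were 4.87, 4.91 and 4.84 against 7.88, 7.91 and 7.90, a difference of 3.03 (SE 0.03, limma adjusted p = 1.10e-05). On both, the gap between the groups was many times the spread within either of them. Probe sets called higher with a rise of at least 2-fold made up 5.01% of all tested probe sets. The third MXD1 probe set was at the lowest value on all arrays, and the larger rise began just under log2 5.

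MXI1, a related repressor, was measured by 1 probe set, with 9.65, 9.89 and 9.85 in DMSO and 10.41, 10.33 and 10.29 in teriflunomide. The lowest teriflunomide array lay above the highest DMSO array, and the difference was 0.54 (SE 0.08, limma adjusted p = 0.00311). MXD3, the member of this subfamily linked to proliferating cells, read 8.11, 8.08 and 7.95 against 8.39, 8.23 and 8.19. Its arrays did not overlap, yet the difference of 0.22 (SE 0.07, 95% interval 0.04 to 0.41) missed the threshold over probe sets (limma adjusted p = 0.0542) and passed in the fit with 1 probe set per gene (limma adjusted p = 0.0420). MXD3 is therefore at the border of the test.

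MNT, the most broadly expressed MYC antagonist, moved the other way from MXD1 and MXI1. Its bright probe set 204206_at read 10.19, 10.17 and 10.16 with DMSO and 9.87, 9.91 and 9.82 with teriflunomide, a difference of -0.31 (SE 0.04, limma adjusted p = 0.00148). The second, 236749_at, lay between 5.01 and 5.04 on all arrays and did not pass, at 0.01. MGA, a very large MAX partner that is not among the 10 genes, showed -0.21 on its brightest probe set (limma adjusted p = 0.0284 over genes), and it no longer passed in 5 of the 6 fits that each dropped 1 array.

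MLX, the partner of MLXIP and of some MXD proteins, showed small differences. Its brightest probe set, 213708_s_at, read 10.969, 11.086 and 11.125 against 11.003, 11.016 and 10.912, and the groups overlapped (-0.08, 95% interval -0.23 to 0.06, limma adjusted p = 0.274). The next in brightness stood at -0.11 and 0.06, neither past the threshold. Only the dimmest of the 4 tested, 210752_s_at, was called, with 7.08, 7.07 and 7.16 against 6.64, 6.74 and 6.93 (-0.34, SE 0.08, limma adjusted p = 0.0216). That call was lost without any one of 5 of the 6 arrays, where the adjusted p ran from 0.0501 to 0.0731, and with no filter (adjusted p = 0.0722). MLXIP fell on 225157_at, from 10.01, 9.87 and 9.94 to 9.65, 9.54 and 9.54 (-0.36, SE 0.05, limma adjusted p = 0.00350). On 202519_at its arrays overlapped, and the difference of -0.12 did not pass. MLXIPL, the liver-type relative of MLXIP, was at 2.18 on all arrays.

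**Figure D2:**
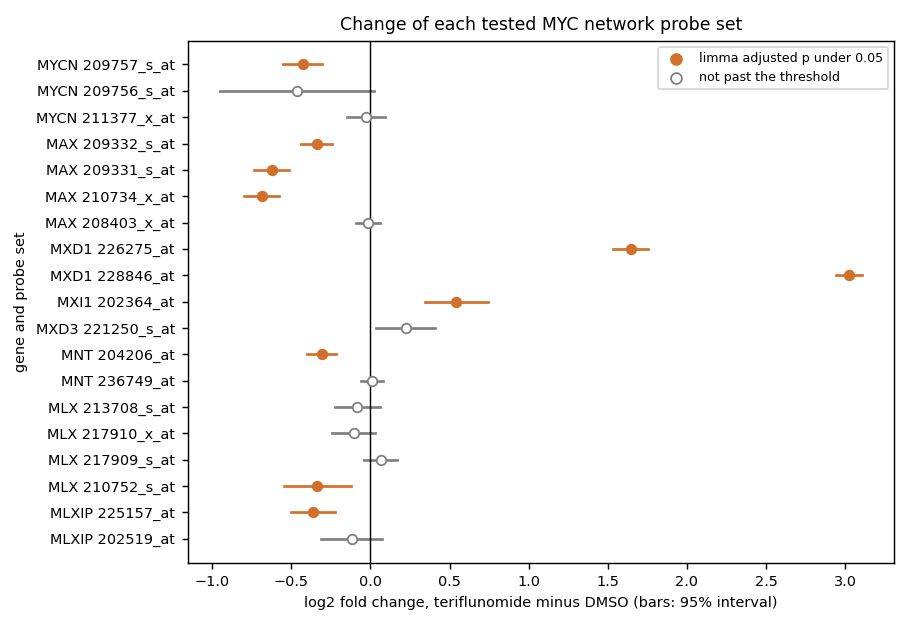
Log2 fold change, teriflunomide minus DMSO (horizontal axis), of the 19 tested network probe sets, with limma's 95% intervals as bars; filled points passed an adjusted p of 0.05. MXD1 lies at 1.64 and 3.03 and MXI1 at 0.54, while the 7 called falls lie between -0.31 and -0.69.

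TXNIP and ARRDC4, arrestin-domain genes known to be switched on by MLXIP with MLX, both rose. The 3 TXNIP probe sets rose by 1.89, 1.95 and 2.25, the brightest from 10.86, 10.76 and 10.79 to 12.66, 12.72 and 12.68 (SE 0.04, limma adjusted p = 2.83e-05). ARRDC4 read 10.23, 10.21 and 10.37 against 10.54, 10.53 and 10.69, a rise of 0.31 (SE 0.07, limma adjusted p = 0.0134). These 2 genes were higher while MLXIP and MLX transcripts were lower or not past the threshold. How those transcripts bear on the activity of the MLXIP and MLX proteins was not tested. Neither upstream window of TXNIP held CACGTG, and that of ARRDC4 held 1, 210 bases before the start. Only these exact letters were counted, so an altered form of the E-box would not be seen.

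Among the genes around MYCN in chromosome band 2p24, MYCNOS, transcribed from the opposite strand and overlapping the start of MYCN, fell most. Its 2 tested probe sets changed by -1.42 (SE 0.09) and -1.63 (SE 0.17), with limma adjusted p of 0.000196 and 0.000944. The brighter read 9.03, 9.21 and 9.25 with DMSO and 7.66, 7.71 and 7.87 with teriflunomide, a 2.67-fold fall. It is not set against the fall of the bright MYCN probe set, which lies near the top of the scale, where whether signal is compressed was not tested. How strictly these probes tell the strands apart was not tested. DDX1, an RNA helicase gene often co-amplified with MYCN, read 15.93, 15.92 and 15.96 against 15.92, 15.91 and 15.88, and its difference of -0.03 (SE 0.03) did not pass (limma adjusted p = 0.409). DDX1 lies closer to the highest value of the arrays than MYCN does, so this probe set may not show a change.

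NBAS, a gene of retrograde vesicle transport, rose on its brightest probe set, from 14.72, 14.77 and 14.76 to 15.02, 15.03 and 15.02 (0.27, SE 0.03, limma adjusted p = 0.00111). It also rose by 1.05 on its dimmest, 242049_s_at. On 240579_at the NBAS arrays of the groups overlapped, and the difference of 0.29 (SE 0.25) did not pass (limma adjusted p = 0.384). CYRIA, a regulator of the actin-controlling WAVE complex, stood at 0.60 on its brightest probe set, which passed over genes (limma adjusted p = 0.0406) and not over probe sets (0.0524). It no longer passed in 4 of the 6 fits that each dropped 1 array. Of its dimmer probe sets, 208092_s_at rose by 2.03, from a mean of 2.40 to 4.43 (limma adjusted p = 0.000799), and 230276_at stood at 0.11 and did not pass. TRIB2, a pseudokinase gene farther out in the band, fell by 0.57 and 0.59 on its probe sets. MYCNUT was at 2.18 on all arrays, and GACAT3 had no probe set with a single symbol here. Of 5 tested genes near MYCN, 2 were higher, 2 lower and 1 not past. Each direction held 40% of them, above the shares of all tested genes (29.7% higher, 28.9% lower and 58.6% called either way). That rests on 5 genes and was not tested.

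**Figure D3:**
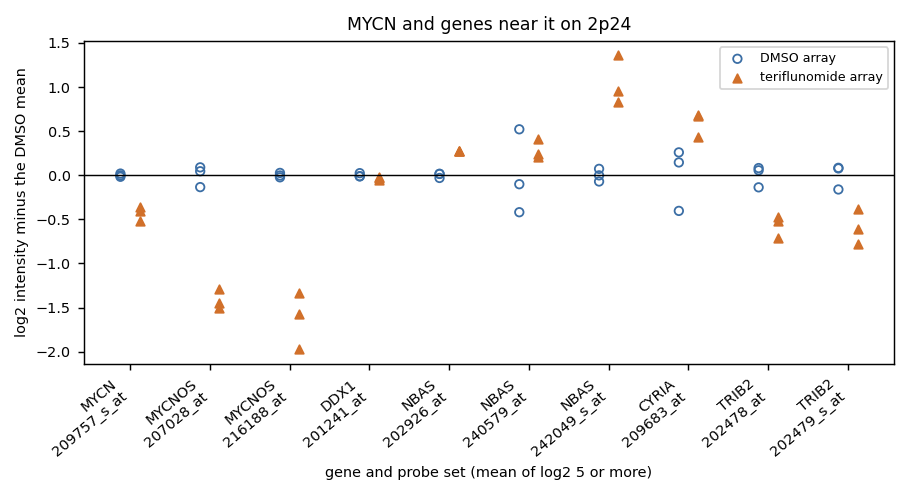
Log2 intensity of each array minus the DMSO mean of that probe set (vertical axis), for MYCN and the genes near it whose probe sets averaged log2 5 or more; circles are DMSO arrays and triangles teriflunomide arrays. MYCN lies near -0.43, MYCNOS at means of -1.42 and -1.63, DDX1 near 0, and NBAS and CYRIA above 0.

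The target lists used 1 probe set per gene, the one with the highest mean, and adjusted p-values over 11998 genes, of which 29.7% were higher, 28.9% lower and 58.6% called either way. In that fit 3 of the 8 tested network genes were higher (MXD1, MXI1 and MXD3), 4 lower (MYCN, MAX, MNT and MLXIP) and 1 not past (MLX). These shares, 37.5% higher and 50% lower, were above that background, though they rest on 8 genes and were not tested against it. This and the lists below were chosen with earlier results of these data known, so their counts are descriptions and not independent tests. Of 68 tested MYC-activated targets (78 listed), 53 fell and 5 rose, and the other 10 missed the threshold. The median difference was -0.46, beside 0.0015 over all tested genes. The largest falls were those of TBRG4, a mitochondrial RNA regulator (-2.51, or -0.56 with values under log2 5 raised to 5), and of UTP20 and NOP16, which act in ribosome assembly (-1.70 and -1.39). Classical targets, chosen after their values were seen, fell by less: NCL (nucleolin) by 0.50, NME1 (a nucleoside diphosphate kinase) by 0.38 and LDHA (lactate dehydrogenase A) by 0.34. LIN28B, a let-7 inhibitor that lifts let-7 repression of MYCN, likewise picked with its value known, fell by 0.50.

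The 3 largest rises in the list were DUSP2, a phosphatase of MAP kinases (0.60), CAD, the enzyme of the first pyrimidine steps (0.54), and ODC1, the rate-limiting enzyme of polyamine synthesis (0.43). ODC1, a textbook E-box target, read 14.17, 14.30 and 14.25 with DMSO and 14.61, 14.73 and 14.67 with teriflunomide (SE 0.05, limma adjusted p = 0.00112 over genes), so it was higher on every teriflunomide array while MYCN was lower on each. The DUSP2 call was lost without any one of 3 of the arrays. Of the 64 listed targets with an upstream window, 24 held CACGTG, or 37.5%, against 7.73% of all genes with a window, tested or not. Other lists were also above that share: 22.2% of 9 MYC-repressed targets, 21.4% of 14 stability genes and 18.2% of 22 cofactors and corepressors. None of the 6 genes near MYCN with a window held it, nor did MGA, MYCL or MLXIPL.

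Genes known to be repressed by MYC proteins showed the opposite count. Of 13 tested (18 listed), 10 rose (76.9%) and 1 fell (7.69%), beside 29.7% and 28.9% of all tested genes. The list median was 0.52, beside 0.0015 over all tested genes. NGFR, the low-affinity neurotrophin receptor, rose by 2.36 (SE 0.24), CDKN1A, the gene of the cycle inhibitor p21, by 1.40 (SE 0.08) and DKK1, a WNT antagonist, by 1.17 (SE 0.08), while NDRG4 fell by 0.54 (SE 0.15). Dim genes carry part of this count: DKK1 lay under log2 5 on all arrays and stood at 0 with values under 5 raised to 5, where NGFR no longer passed and 6 genes rose. With only genes at the 75th percentile or above, 5 rose and 0 fell (limma; 0 fell also at an unadjusted p under 0.05). CDKN1A started at 9.83; its call was the same under both settings.

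Of 25 tested MYC cofactors and corepressors (28 listed), 7 fell, 5 rose and 13 missed the threshold. The list median was -0.09, and with array weights 11 fell. Neither share, 28% lower and 20% higher, was above that of all tested genes (28.9% and 29.7%). Without SIN3A, whose probe sets were called in opposite directions, 6 of 24 fell and 5 rose, also counted after the data were seen. RUVBL1, an ATPase of the TIP60 and INO80 complexes, fell by 1.02 (SE 0.12) and KAT2A, a histone acetyltransferase, by 0.58 (SE 0.09). CDK9, the kinase of P-TEFb, rose by 0.79 (SE 0.04), DNMT3A, a DNA methyltransferase, by 0.55, and ZBTB17, which encodes the MYC partner MIZ1, by 0.54. A dimmer CDK9 probe set, 236023_at, stood at 0.11 with overlapping arrays and did not pass (limma adjusted p = 0.729). A dim DNMT3A probe set, 244428_at, stood at 0.01 and did not pass either. SIN3A, the corepressor that MXD proteins recruit, was -1.61 on its brightest probe set and -2.06 on another but 0.36 on 225135_at, with each past the threshold, so its direction is not settled.

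Of 17 tested genes that control the stability of MYC proteins (18 listed), 10 fell, 2 rose and 5 missed the threshold, with 1 probe set per gene. That is 58.8% lower and 11.8% higher, beside 28.9% and 29.7% of all tested genes. The list median was -0.22. The list mixes genes that protect MYC proteins with genes that promote their loss, so its count gives no direction for stability. It shares 1 gene, PLK1, with the MYC-activated targets. Without GSK3B, whose probe sets were called in opposite directions, 9 of 16 fell and 2 rose, a count added after the data were seen. PPP2R5A, a phosphatase subunit that promotes MYC degradation, fell by 0.86, and CIP2A, which protects MYC from that phosphatase, fell by 0.67. AURKA, the kinase that shields MYCN from degradation (named after seeing its value), fell by 0.26 (SE 0.03). GSK3B, the kinase that marks MYC proteins for destruction, was -0.95 on its brightest probe set, and its others stood at -3.32, 0.60 and 1.72, so no direction can be given. TRIM32 rose by 0.45 (0.30 and not past when its probe sets were averaged), and the rise of USP22, 0.12, was lost under several settings. FBXW7 and HUWE1, ubiquitin ligases of MYC proteins chosen after their values were seen, stood at -0.13 and 0.05 and did not pass.

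**Figure D4:**
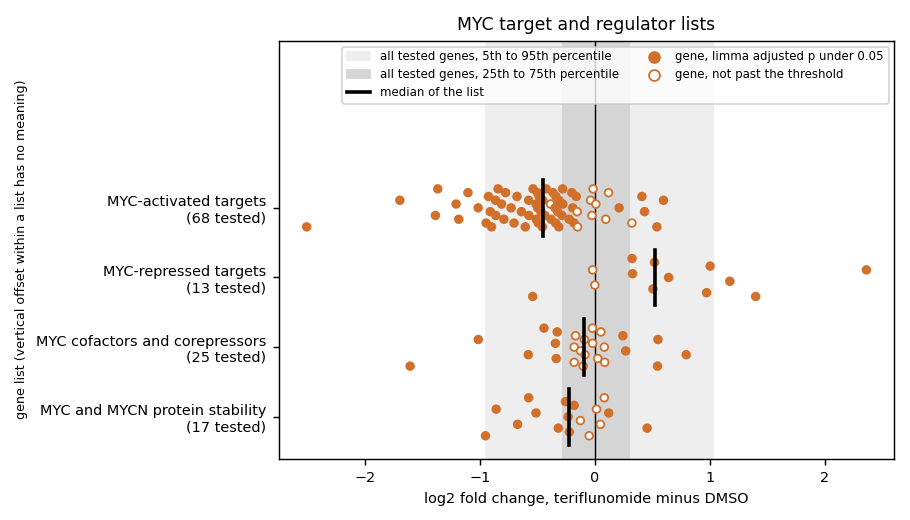
Log2 fold change of each tested gene (horizontal axis) in 4 lists of MYC targets and regulators, with the list median as a black bar; filled points passed a limma adjusted p of 0.05, and shading spans the 25th to 75th and the 5th to 95th percentiles of all tested genes. MYC-activated targets lie mostly left of 0 (median -0.46) and MYC-repressed targets mostly right of it (median 0.52). The lists were chosen with earlier results of these data known.

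The genes whose values over the 6 arrays followed the bright MYCN probe set most closely were ARHGAP11A, C1QBP (a mitochondrial matrix protein gene) and MEN1 (the gene of menin), with Pearson's r of 0.998, 0.998 and 0.996. With 3 arrays a group such an r mostly restates the difference between the groups: 1192 of 11997 genes had an r above 0.95. ARHGAP11A fell by 0.92, C1QBP by 0.50 and MEN1 by 0.62.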

How the data were processed

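RNA of 3 DMSO and 3 teriflunomide samples was read on Affymetrix arrays. The authors' deposited values are log2 intensities, 1 per probe set and array, made with GCRMA per the submitters' processing notes; neither version nor settings are stated in what was used here. GCRMA models background from probe sequence, so differences near the lowest value depend on that model. Of the probe sets, 41097 had 1 gene symbol in the platform annotation, 1801 several and 11777 none. Of the 41097, 41043 were matched by gene identifier to a RefSeq table of GRCh38.p14, used for names; promoter windows came from a RefSeq table of the same build.

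Groups were compared with limma (version 3.58.1, R 4.3.3; lmFit and eBayes, two-sided, no covariates), with Benjamini-Hochberg adjustment over the 27290 probe sets, or 11998 genes, that passed the filter. Control probe sets were left out of the tests, and the fit was tested on simulated data. Precision is limited by 3 arrays a group. The network members and gene lists were chosen with earlier results of these data known. Named were all probe sets of the 10 genes, the 3 largest significant rises and 3 largest significant falls of each list, every gene of lists of 8 or fewer, and the 3 genes most correlated with MYCN. Alternatives covered the filter, scaling, raised floor, variance model, array weights, replicate block, probe set choice and each array left out. Figures used Python 3.11.15.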

Additional observations from a re-analysis of the deposited data

How the results depend on the processing

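Among the network probe sets, 3 to 4 were higher and 5 to 7 lower under all settings run, and no called probe set changed direction. MXD3 passed with the filter at the 75th percentile (0.22), median centring (0.24), array weights (0.26) and the replicate block (0.22), and MLX 217910_x_at passed without DMSO replicate 1 (-0.15). Among the lists, the count of higher MYC-activated targets became 2 without a filter, 3 when arrays were centred on poly-A spikes, and 2 to 4 with an array left out. The count of higher MYC-repressed targets became 5 with the filter at the 75th percentile and 6 with values under log2 5 raised to 5. The 1 lower member, NDRG4, became 0 by limma with no filter, with that filter, with the replicate block and without some arrays (0 to 1); at an unadjusted p under 0.05 the count was 1, 0, 1 and 1. Lower cofactors became 11 with array weights. Higher stability genes became 1 with poly-A centring, array weights and the replicate block, 1 to 2 with an array left out, and 0 by limma with the mean of probe sets (0 also at an unadjusted p under 0.05). SIN3A reversed to 0.36 when plain-suffix probe sets took priority. The cause of these shifts was not tested. Arrays with the same replicate number had correlated deviations of 0.13, 0.15 and -0.05, so the numbers were not taken as pairs; with the replicate block 4 network probe sets were higher and 7 lower. Scaling moved the median of all genes to between -0.07 and 0.02. Signal near the lowest value limits what the dim probe sets can show.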

Other observations

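Besides the network, 11 genes of other helix-loop-helix factors that bind E-boxes were chosen after the network results were seen, and 8 were tested, 1 probe set per gene. Of these, 5 rose, 0 fell (limma; 0 also at an unadjusted p under 0.05) and 3 did not pass, beside 29.7% of all tested genes higher. TFEB, a regulator of lysosomal genes, rose by 1.94 (SE 0.14, limma adjusted p = 0.000209), and its relatives MITF and TFE3 rose by 1.13 and 1.09. SREBF2, the sterol-responsive factor, rose by 0.83 and SREBF1 by 0.32, the last not past the threshold over probe sets (limma adjusted p = 0.0526). USF1, USF2 and USF3, which bind the same CACGTG letters, stood at 0.04, 0.05 and -0.10. Second probe sets of TFEB and TFE3 were dimmer, at 0.43 and 0.66, and did not pass. TFEC, BHLHE40 and BHLHE41 were below the filter.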
